A study of Mus musculus with 80 samples.

Results

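The nuclear-encoded subunits of respiratory chain complexes II, III, IV and V, together with cytochrome c, were examined in the left ventricle of C57Bl/6J mice. A row of the count table was taken as a member when its gene was protein coding, its symbol began with Uqcr, Cox4 to Cox8 or Atp5 or was Sdha, Sdhb, Sdhc, Sdhd, Cyc1 or Cycs, and its mean over all 80 libraries was at least 1 CPM (CPM is the gene's reads scaled to the total of its library). This left 49 genes of 56941, namely 4 of complex II, 9 of complex III, 17 of complex IV, 18 of complex V and Cycs. All 49 also passed the filter on low counts that preceded the tests. Of 52 protein-coding genes with such symbols, 3 were below the limit. These were Cox8c, with 0 counts, Cox7b2, at 0.168 CPM, and a read-through gene that shares the symbol Atp5po, with 0 counts. Just inside the limit were Cox6b2, at 1.255 CPM, and Cox5b-ps, at 5.53 CPM, which the annotation calls protein coding although its name marks a copy of Cox5b.

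The 80 libraries form 8 groups of 10, which are 4 conditions in males and in females. Sham mice had the normal diet and 0 cGy, and Western mice had the Western diet and 0 cGy. Mix mice had the normal diet and 50 cGy of a field labelled only Mix, and gamma mice had the normal diet and 100 cGy of gamma radiation (cGy, centigray, measures the dose absorbed). The labels give neither age nor time after exposure, and all mice were of 1 strain with no transgene named. The labels do not state that each library is a separate animal, so p-values measure the spread between libraries, which may be technical. Titles are numbered 1 to 40 within each sex. Replicates 1 to 5 of every group carry numbers 1 to 20 (the first run) and replicates 6 to 10 carry 21 to 40 (the second run), and what separates these runs is not labelled.

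Oxidative phosphorylation makes most of the ATP that the beating heart uses. Succinate dehydrogenase (complex II) feeds electrons from the citric acid cycle into the quinone pool. The cytochrome bc1 complex (complex III) passes them to cytochrome c, the small carrier that delivers them to cytochrome c oxidase (complex IV), where oxygen is reduced. Complexes III and IV pump protons, and ATP synthase (complex V) uses the proton gradient to make ATP. Every subunit of complex II is nuclear, whereas complexes III, IV and V combine the nuclear subunits described here with subunits encoded by the mitochondrial genome. Several complex IV subunits exist as a muscle form and a form found in most tissues.

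Total counts ran from 13484776 to 22143504 a library, and the 49 genes took 2.55 to 3.90% of them (median 3.10%). The tissue label was checked against 8 ventricular muscle markers (Myh6, Myl2 and others), which summed to 45471 to 73026 CPM. A list of 5 atrial markers summed to 2.58 to 27.04 CPM in females of the first run. In males the median sum was 164 CPM in the first run and 10.03 CPM in the second, where 1 library reached 2057 CPM. The sum of 6 skeletal muscle markers reached at most 4.73 CPM. The atrial marker Bmp10 was called lower in males under each of the 3 treatments, and its part in the values of the 49 genes was not tested. Female gamma replicate 7 lacks Xist against its label, and female mix replicate 10 stands apart from its group. The treatment results they enter, pooled over the runs, are given with and without them where the values moved. Treatment values by run, and medians of the sex differences in a treatment effect, are given only with them. Female gamma replicates 8 and 9 were the most alike pair of any group, with a chi-square of 1.64 per degree of freedom, above the sampling noise of copies, and were kept as separate libraries. Treatment values by run are given only with both of these.

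Levels were compared between genes as CPM per kilobase of coding sequence, since longer transcripts give more reads. The highest level belonged to Cox6a2, the muscle form of complex IV subunit 6a (ENSMUSG00000030785, GRCm39 chromosome 7, 127804607 to 127805559), at 4655 ± 967 (SD, n = 80). Cox6c followed at 2927 ± 559. The catalytic beta subunit of ATP synthase, Atp5f1b (ENSMUSG00000025393, chromosome 10, 127919132 to 127926261), was at 2873 ± 298, and the alpha subunit Atp5f1a at 2501 ± 238. Neighbouring levels of these last 3 genes differ by less than their summed SDs, which measure the spread between libraries, and their order was not tested. The order depends on the length used. Per full transcript length Atp5f1b ranked 1, Cox6a2 2, Atp5f1a 3 and Cox6c 7.

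Complex II, the complex with the fewest genes (4), was the most even per coding length. Its iron-sulfur subunit Sdhb had 912 ± 120 CPM per coding kilobase, the membrane anchors Sdhc and Sdhd had 908 ± 107 and 756 ± 96.4, and the flavoprotein Sdha, which oxidises succinate, had 635 ± 86.6. Per kilobase of full transcript its levels ran from 143 (Sdhc) to 411 (Sdha), beside 256 (Uqcrc2) to 635 (Uqcrc1) in complex III. In complex III the accessory subunit Uqcrq was highest at 2279 ± 508 (rank 8 of the 49, but rank 25 per full transcript length) and the core protein Uqcrc2 lowest at 437 ± 50.6. The catalytic subunits Cyc1 (cytochrome c1) and Uqcrfs1 (the Rieske iron-sulfur protein) lay between them at 850 ± 104 and 1018 ± 111. Cycs had 1638 ± 274 (rank 16, but rank 40 per full transcript length). Median levels per gene were 832 in complex II, 1018 in complex III, 1266 in complex IV and 1173 in complex V, on the same scale.

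Far below the rest of their complexes stood 6 genes. Complex V held Atp5mg at 107 ± 22.1, the stalk subunit Atp5po at 38.98 ± 12.4 and Atp5if1, the inhibitory factor that blocks ATP hydrolysis by complex V, at 26.5 ± 9.17. Complex IV held Cox4i2 at 21.03 ± 5.26, Cox5b-ps at 14.3 ± 4.18 and Cox6b2, the testis form of subunit 6b, at 4.75 ± 1.72. Of 14 named pseudogenes of these families, Atp5pb-ps at 2.26 CPM and Atp5l2-ps at 1.05 CPM exceeded 1 CPM, and how reads that fit several copies were counted is not given. All exon bases of Atp5mk lie under exons of Taf5 and Pdcd11 on the other strand, and 59.6% of those of Atp5if1 and 57.3% of those of Cox8b are covered likewise. The strand setting of the counting is not given, so these 3 levels may include reads of their neighbours. Of the exon bases of Atp5po, 9.26% are shared with another gene on the same strand. How reads there were counted is not given, so its level may lack them.

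**Figure D1:**
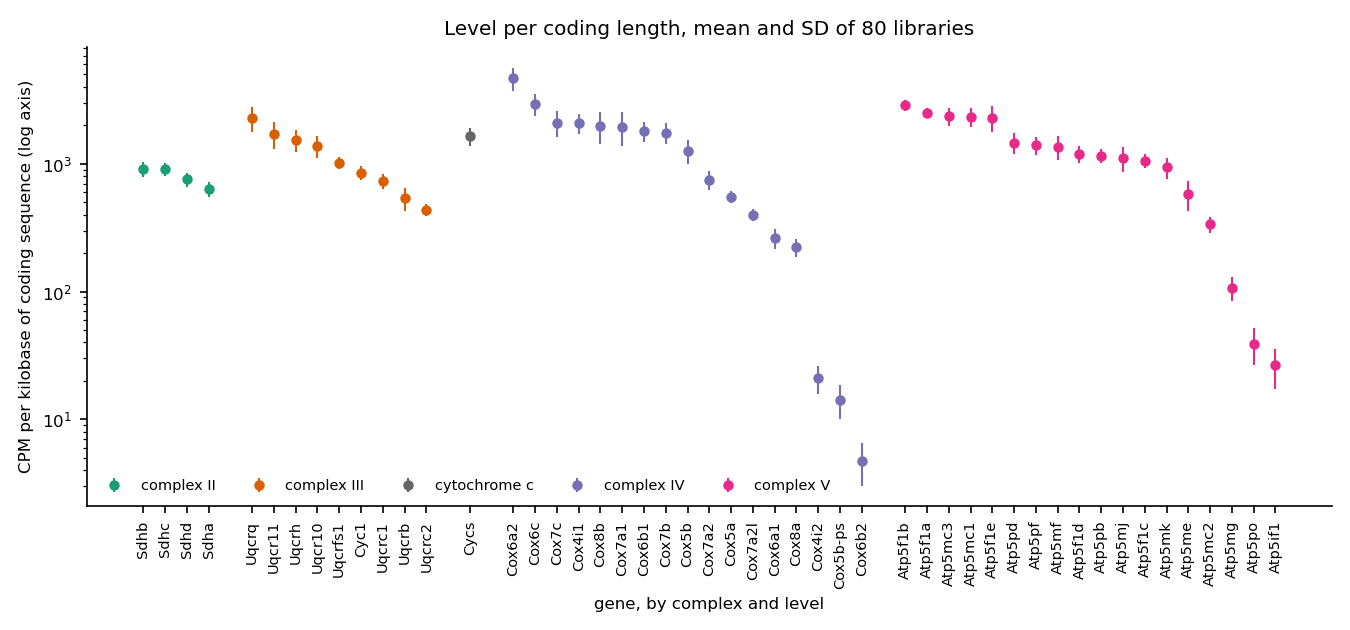
Level of each of the 49 genes as CPM per kilobase of coding sequence on a log axis, grouped by complex; points are means and bars SD over 80 libraries. Complex II lies within a narrow band (635 to 912), whereas complexes IV and V each span from their highest genes (4655 and 2873) to their lowest (4.75 and 26.5).

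Muscle forms dominated 3 of the 5 isoform pairs of complex IV. Cox6a2 made up 91.95 to 96.2% of the subunit 6a pair per coding length (median 94.6%), with Cox6a1 making up the rest. Cox7a1, the muscle form of subunit 7a (ENSMUSG00000074218, chromosome 7, 29883569 to 29885503), took 60.3 to 78.2% of its pair with Cox7a2 (median 73.0%). Cox8b, the muscle form of subunit 8 (ENSMUSG00000025488, chromosome 7, 140477069 to 140480359), took 81.9 to 92.9% of its pair with Cox8a (median 90.6%). This last share depends on the length used, since the median was 53.8% (35.4 to 61.1%) per full transcript length. In the pairs without a muscle form, the common Cox4i1 took 98.3 to 99.3% against Cox4i2, and Cox6b1 took 99.5 to 99.9% against Cox6b2. Every library thus had the muscle form ahead for subunits 6a and 7a on both lengths.

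The 250 bases before the start of the canonical transcript are shown for these muscle forms, because they share a tissue pattern and because Cox7a1 and Cox8b were both lower in second-run females. Sequences are from GRCm39, 5′ to 3′ on the strand of the gene, with matches to 6 short words in capitals. Those words, searched on both strands, were GCATGCGC (NRF1), CCGGAAG (ETS factors), AAGGTCA (ERR), GGGCGG (Sp1), CCAAT (the CCAAT box) and TAAAAATA (MEF2). No 2 matches overlapped in the sequences printed.
Cox6a2: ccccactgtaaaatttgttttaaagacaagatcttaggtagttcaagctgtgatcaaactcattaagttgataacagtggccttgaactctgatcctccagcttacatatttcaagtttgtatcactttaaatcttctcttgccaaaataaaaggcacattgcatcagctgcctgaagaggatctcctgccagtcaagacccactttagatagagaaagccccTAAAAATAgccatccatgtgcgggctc
Cox7a1: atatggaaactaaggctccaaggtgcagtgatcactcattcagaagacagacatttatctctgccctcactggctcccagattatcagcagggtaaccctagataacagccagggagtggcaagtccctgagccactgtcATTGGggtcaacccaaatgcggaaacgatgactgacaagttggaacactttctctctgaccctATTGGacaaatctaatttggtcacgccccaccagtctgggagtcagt
Cox8b: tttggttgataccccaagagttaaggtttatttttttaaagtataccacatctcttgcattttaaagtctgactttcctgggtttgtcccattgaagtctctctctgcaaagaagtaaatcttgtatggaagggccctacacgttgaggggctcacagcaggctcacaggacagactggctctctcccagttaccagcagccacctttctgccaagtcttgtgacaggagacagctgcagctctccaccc
The windows are chr7:127805560-127805809 (minus strand), chr7:29883319-29883568 (plus strand) and chr7:140480360-140480609 (minus strand), and no annotated exon lies in them. The window of Cox6a2 held the MEF2 word 27 bases before the start, that of Cox7a1 held the CCAAT word 110 and 47 bases before it, and that of Cox8b held none of the 6. Among 13578 promoters of tested protein-coding genes, 1.57% held the MEF2 word and 35.6% the CCAAT word. Over the 49 genes the counts were 4 with the NRF1 word (8.16%, against 3.14% of all promoters), 5 with the ETS word (10.2% against 9.29%), 1 with the ERR word (2.04% against 3.22%), 17 with the Sp1 word (34.7% against 48.1%), 17 with the CCAAT word (34.7%) and 2 with the MEF2 word (4.08%). A match is a description of these letters only.

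Within a group and run, the log2 CPM of the 49 genes had a median SD of 0.23, from 0.14 for Cox7a2l to 0.51 for Cox6b2. The median over all 15879 genes tested was 0.27, and over the 4215 of these with a mean log2 CPM of at least 5 it was 0.18. Across the 80 libraries, after the mean of each group and run was taken off, the genes mostly varied together. The median Pearson r over 1176 pairs was 0.63, and 92.3% of pairs were positive. Pairs within a complex had a median r of 0.65 and pairs between complexes 0.62. The points share libraries and depth, and these values are descriptive.

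A set of 4 large subunits departed from this common variation. The median r with the other genes was -0.10 for Sdha, 0.002 for Uqcrc2, 0.02 for Atp5f1a and 0.09 for Atp5f1b, whereas it was 0.83 for Cox6b1, 0.82 for Uqcrq and 0.82 for Cox7b. Yet these large subunits varied with each other. The r was 0.95 between Sdha and Atp5f1a, 0.90 between Atp5f1a and Atp5f1b, and 0.73 between Sdha and Uqcrc2. Sdha and Sdhb, partners in the soluble part of complex II, had an r of -0.09. The set was singled out after its values were seen. Large size does not define it, since Uqcrc1, longer in coding bases (1440) than Uqcrc2 (1359), had a median r of 0.63.

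In males, the Western diet left 0 of the 49 genes called by edgeR at an adjusted p under 0.05 (background, 0.397% of all genes), and 0 had an unadjusted p under 0.05. DESeq2 and limma-voom also called 0. The median log2 change was -0.004, with 23 genes positive, against a median of -0.005 over all genes. Atp5if1, the gene of smallest p, ran from 11.5 to 20.1 CPM in Western males (median 15.1) and from 10.5 to 17.2 CPM in sham males (median 12.3). These groups overlapped, and the log2 difference was 0.26 (edgeR adjusted p = 0.624). The next were Cox6a1 (-0.10), Cox5b-ps (0.17), Atp5f1b (-0.06) and Atp5mk (0.08).

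In females on the Western diet, 0 genes were called (background, 0.0189%), with 0 at an unadjusted p under 0.05, and the median log2 change was -0.02. Atp5f1b ran from 3560 to 5057 CPM (median 4557) against 3971 to 5406 CPM in sham females (median 4884). The groups overlapped, at a log2 difference of -0.13 (edgeR adjusted p = 0.712). The genes next by p were Atp5mc2 (-0.14), Sdhd (-0.11), Atp5mg (0.13) and Sdhc (-0.08). As the mean of both sexes, 0 genes were called (background, 0.0%) and the median was -0.01, led by Atp5f1b at -0.10. The difference between the sexes in the Western effect gave 0 calls (background, 0.447%), with Atp5if1 leading at 0.30 (edgeR adjusted p = 0.817). DESeq2 and limma-voom called 0 in each of these comparisons, in which the unadjusted count was 0 as well.

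In males given the mix field, 0 genes were called (background, 0.0693%) and 0 had an unadjusted p under 0.05. The median log2 change was 0.02 and 30 genes were positive. Cox7a2l, a relative of subunit 7a, ran from 191 to 293 CPM (median 215) against 179 to 229 CPM in sham males (median 213). The medians lay close together, and the log2 difference was 0.11 (edgeR adjusted p = 0.700). Uqcr11 (0.23), Uqcrq (0.19), Cox4i2 (-0.16) and Atp5mg (0.16) followed.

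In females given the mix field, 0 genes were called (background, 0.0%) and 2 had an unadjusted p under 0.05. Atp5f1b ran from 2575 to 4972 CPM (median 4311) against 3971 to 5406 CPM in sham females (median 4884). It was lower in most mix libraries, the groups overlapped, and the log2 difference was -0.19 ± 0.07 (SE, edgeR adjusted p = 0.740). The others by smallest p were Cox7a2l (-0.13), Atp5pb (-0.15), Sdhd (-0.15) and Atp5f1a (-0.12). The median over the 49 genes was -0.02, with 19 positive. Without female mix replicate 10 it was -0.08, with 1 positive and 1 at an unadjusted p under 0.05. As the mean of both sexes, 0 were called (background, 0.0%), with 1 unadjusted, 19 positive and a median of -0.01. Without female mix replicate 10 these were 0 unadjusted, 11 positive and a median of -0.03. The difference between the sexes gave 0 calls (background, 0.0315%) and a median of 0.07, led by Cox7a2l at 0.23 (edgeR adjusted p = 0.424).

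The median mix change in females had opposite signs in the runs of title numbers. edgeR called 0 of the 49 genes in either run, beside 15 and 7 of all 15879 genes. The 49 genes mostly varied together, so their signs are not independent. In the first run the median log2 change was -0.25, with 0 of 49 genes positive, and 13 genes had an unadjusted p under 0.05 (11.7% of all genes did). It was 0.20 in the second run, with 38 positive and 7 at such a p (13.4% of all genes). Female mix replicate 10 is 1 of the 5 mix females of the second run. Its part in the second-run values and in the difference between the runs was not tested. Relative to each gene's mean over all libraries, the median of the 49 genes ran from -0.25 to -0.002 in the 5 mix females of the first run and from -0.08 to 0.24 in the 5 sham females. In the second run it ran from -0.18 to 0.37 in mix females and from -0.33 to 0.05 in sham females. The difference between the runs, tested as a contrast added after the data were seen, gave 0 calls among the 49 genes by edgeR (background, 1.39%) and 31 genes at an unadjusted p under 0.05, against 17.1% of all genes. The smallest adjusted p was 0.0805, for Sdhb, at a log2 difference of 0.47 ± 0.15 (SE). The muscle form Cox6a2 differed by 0.68 ± 0.23 and the common Cox4i1 by 0.61 ± 0.19. Nuclear subunits of complex I, the NADH dehydrogenase, had library medians of -0.24 to -0.04 in mix females of the first run and -0.29 to 0.50 in the second.

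**Figure D2:**
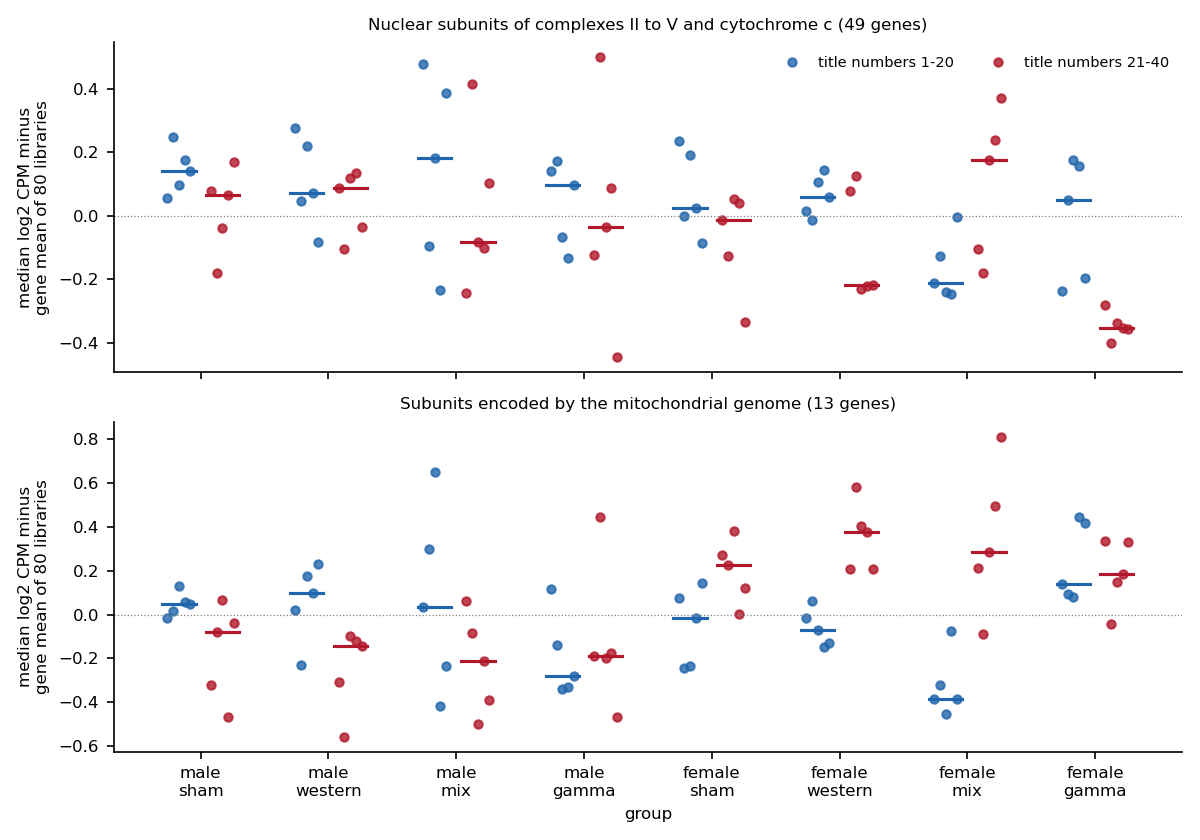
Each point is 1 library: the median, over 49 nuclear subunits (top) or 13 mitochondrially encoded subunits (bottom), of log2 CPM minus the gene's mean over 80 libraries; lines are medians of 5 libraries, and colours mark title numbers. Mix females lie low in the first run (-0.25 to -0.002) and higher in the second (-0.18 to 0.37), and the 5 gamma females of the second run lie lowest as a set (-0.40 to -0.28).

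In males given gamma radiation, 0 genes were called (background, 0.176%) and 0 had an unadjusted p under 0.05. The median log2 change was -0.05, with 9 positive. It rested on single libraries, since it was 0.01 without male gamma replicate 10, the gamma male with the lowest member median, and -0.11 without male gamma replicate 7, the one with the highest. The genes of smallest p were Cox5a (-0.12), Atp5mj (-0.17), Atp5f1b (-0.09), Uqcrc1 (-0.09) and Cox6a1 (-0.10), at edgeR adjusted p of at least 0.954.

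In females given gamma radiation, nearly all genes had negative values and none passed the test. edgeR called 0 (background, 0.0%), as did DESeq2 and limma-voom, and 6 of the 49 genes had an unadjusted p under 0.05, near the 10.3% of all genes tested. The median log2 change was -0.16, with 1 of 49 positive, beside a median of -0.003 over all genes. The median SE of 1 gene was 0.11. By complex the median was -0.11 in complex II, -0.18 in complex III, -0.21 in complex IV and -0.16 in complex V, and Cycs was at -0.15.

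These 6 genes numbered 4 without female gamma replicate 7 and 3 without replicate 8 or replicate 9. Cox4i2, the subunit 4 form that hypoxia induces in other cells (ENSMUSG00000009876, chromosome 2, 152595625 to 152606959), ran from 6.08 to 8.74 CPM in gamma females (median 7.30) and from 6.72 to 12.8 CPM in sham females (median 9.63). Most gamma libraries lay below the sham median, the groups overlapped, and the log2 difference was -0.38 ± 0.12 (SE, edgeR adjusted p = 0.381). Cox7a1 ran from 205 to 581 CPM (median 297) against 257 to 674 CPM (median 440), a log2 difference of -0.38 ± 0.18. Cox6a1 (-0.27 ± 0.10), Atp5me (-0.39 ± 0.17), Cox8a (-0.21 ± 0.10) and Cox4i1 (-0.21 ± 0.10) were the others, at adjusted p from 0.391 to 0.475 by edgeR.

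The median was further from 0 in the second run, at -0.27 with 0 genes positive and 17 of unadjusted p under 0.05 (5.40% of all genes), than in the first, at -0.10 with 8 positive and 1 at such a p (10.9% of all genes). The difference between the runs gave 0 calls by edgeR in a contrast added later, with 4 genes at an unadjusted p under 0.05 (3.47% of all genes). Pooled over the runs, the median was -0.13 without female gamma replicate 7, which lacks Xist, and -0.14 without replicate 8 or replicate 9, the most alike pair. These libraries all belong to the second run, and their part in the second-run values was not tested. The nuclear subunits of complex I had a median of -0.17, with 1 of 38 positive, and 10 carriers and cristae proteins had a median of -0.09, with 1 positive. None of either list was called. Of the mitochondrially encoded subunits 10 of 13 were positive, at a median of 0.16, with 0 called. The 8 ventricular markers had a median of -0.15 and 2 positive, also with 0 called, and their part in the members' values was not tested. Whether the number of cardiomyocytes or the RNA per cardiomyocyte differed at all was not tested, and bulk samples cannot tell them apart.

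As the mean of both sexes, gamma radiation gave 0 calls (background, 0.0%), a median of -0.11 and 4 genes at an unadjusted p under 0.05, against 10.9% of all genes. These were Cox6a1 (-0.19 ± 0.07), Cox4i2 (-0.19 ± 0.09), Atp5mj (-0.20 ± 0.09) and the core protein Uqcrc1 (-0.12 ± 0.06), at an edgeR adjusted p of at least 0.368. Without male gamma replicate 7 the median was -0.14 with 15 genes at an unadjusted p under 0.05, and without male gamma replicate 10 it was -0.07 with 1. Without female gamma replicate 7 it was -0.08 with 2 genes, and without female gamma replicate 8 or 9 it was -0.09 with 2 and 1 genes. The sex difference in the gamma effect gave 0 calls (background, 0.0%), with 45 of 49 positive at a median of 0.10 and Cox4i2 leading at 0.39 ± 0.17 (edgeR adjusted p = 0.831). Its median was -0.01 with 22 positive in the first run and 0.25 with 49 positive in the second. The 3 treatments were compared with the same sham libraries, so their values are not independent.

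The mix field was also compared directly with gamma radiation, as the mean of both sexes. edgeR, DESeq2 and limma-voom called 0 of the 49 genes (background, 0.0189%), and 10 had an unadjusted p under 0.05 in edgeR, all higher after the mix field (10.4% of all genes had such a p). The median log2 difference was 0.10, with 44 positive. Cox8a led at 0.18 ± 0.07 (SE, edgeR adjusted p = 0.397), followed by Cox6a1 (0.18 ± 0.07), Uqcr11 (0.25 ± 0.10), Uqcrq (0.22 ± 0.09) and Atp5f1d (0.15 ± 0.06). The median was -0.02 in the first run and 0.24 in the second, where 29 genes had an unadjusted p under 0.05 (16.4% of all genes) and 0 were called. Without female mix replicate 10 the median was 0.06, with 1 gene at an unadjusted p under 0.05, and without female gamma replicate 7 it was 0.07, with 6.

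Between male and female sham mice, edgeR, DESeq2 and limma-voom called 0 of the 49 genes (background, 1.2%), with 2 at an unadjusted p under 0.05. Cox4i2 came nearest. It ran from 11.1 to 16.8 CPM in males (median 12.05) and from 6.72 to 12.8 CPM in females (median 9.63). Males were mostly higher, the ranges overlapped, and the log2 difference was 0.39 ± 0.12 (SE, edgeR adjusted p = 0.0898). Atp5mj (0.27 ± 0.13), Atp5mf (0.26), Atp5pd (0.22) and Atp5pf (0.18) were next. Beside this, 4 of 5 atrial markers were called higher in sham males, at a summed 6.84 to 642 CPM against 4.30 to 15.97 CPM in sham females, and their part was not tested.

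Within the second run, 3 members of complex V were called between the sham sexes (background, 3.5%), each higher in males. Atp5if1 ran from 12.6 to 17.2 CPM in 5 males (median 16.05) and from 6.00 to 10.6 CPM in 5 females (median 7.03), with no overlap, at a log2 difference of 1.02 ± 0.22 (SE, edgeR adjusted p = 0.00262). Atp5mj, a small membrane subunit, differed by 0.52 ± 0.15 (adjusted p = 0.0339) and Atp5mf, subunit f, by 0.51 ± 0.15 (adjusted p = 0.0412). In the first run edgeR called 0 (1 at an unadjusted p under 0.05). There Atp5if1 ran from 10.5 to 11.99 CPM in males (median 11.1) and from 9.05 to 19.4 CPM in females (median 12.5), so the medians stood in the other order.

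The runs of title numbers gave more calls among the 49 genes than any treatment. The change from the first to the second run, averaged over the 4 conditions with 20 libraries on each side, was tested in each sex. In males 12 of the 49 genes were called lower (background, 12.8% of all genes called lower) and 0 higher (background, 17%). In females 14 were lower (background, 12.1%) and 7 higher (background, 11.9%). The counts of lower genes were above the background share in both sexes, and the count of higher genes in females was near it. Only Cycs was lower in both sexes, and Cyc1, Sdhc and Atp5mc3 were lower in males and higher in females.

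In males the genes that fell included catalytic and core subunits of complexes II, III and V. Uqcrc2, a core protein of complex III (ENSMUSG00000030884, chromosome 7, 120233976 to 120260035), ran from 513 to 821 CPM in the first run (median 665) and from 409 to 596 CPM in the second (median 549). All 20 second-run males lay below the first-run median although the ranges overlapped, and the log2 change was -0.27 ± 0.05 (SE, edgeR adjusted p = 5.56e-06). The redox centres of complex III fell with it, Uqcrfs1 by 0.20 ± 0.05 and Cyc1 by 0.20 ± 0.05, on the log2 scale, and 18 of 20 second-run males were below the first-run median for each.

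Complex II fell in 3 of its 4 subunits in males. Sdha, the flavoprotein (ENSMUSG00000021577, chromosome 13, 74469359 to 74498436), ran from 1006 to 1594 CPM in the first run (median 1371) and from 842 to 1354 CPM in the second (median 1207), with all 20 below the first-run median (-0.18 ± 0.06, edgeR adjusted p = 0.0230). Sdhc changed by -0.19 ± 0.05 and Sdhd by -0.18 ± 0.06, whereas Sdhb, at -0.08, did not pass the test. Cycs, the mobile carrier, fell from a median of 597 CPM to 502 CPM (-0.22 ± 0.06, adjusted p = 0.00221). In complex V the F1 subunits Atp5f1a (-0.14 ± 0.05) and Atp5f1c (-0.16 ± 0.05), the stalk subunit Atp5pb (-0.15 ± 0.05) and the c ring gene Atp5mc3 (-0.20 ± 0.07) were lower. In complex IV only Cox5a was called (-0.12 ± 0.05, edgeR adjusted p = 0.0459). Without composition scaling 6 of these 12 calls ended, those of Sdha, Sdhd, Atp5f1a, Atp5mc3, Atp5pb and Cox5a, and leaving out 1 male library ended that of Sdha (without sham replicate 6), Atp5pb (5 libraries: mix 1, gamma 5, gamma 10, sham 6 or sham 7) and Cox5a (22 libraries).

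In females the genes that fell included the inhibitor of complex V and many small accessory subunits. Atp5if1 (ENSMUSG00000054428, chromosome 4, 132257215 to 132262823) ran from 7.24 to 19.4 CPM in the first run (median 12.3) and from 4.50 to 10.6 CPM in the second (median 6.87). All 20 second-run females lay below the first-run median, the ranges overlapped, and the log2 change was -0.84 ± 0.11 (SE, edgeR adjusted p = 1.37e-08). In males it was at a median of 11.6 CPM in the first run and 14.7 CPM in the second, a change of 0.26 ± 0.11 that was not called.

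The muscle forms Cox7a1 and Cox8b fell together in females. Cox7a1 ran from 279 to 674 CPM (median 492) and then from 205 to 588 CPM (median 302), with 19 of 20 libraries below the first-run median (-0.62 ± 0.10, edgeR adjusted p = 4.89e-06). Cox8b ran from 264 to 604 CPM (median 449) and then from 205 to 540 CPM (median 250), again with 19 of 20 below (-0.61 ± 0.10, adjusted p = 3.26e-06). Their median shares of the isoform pairs per coding length were 74.6% and then 65.9% for Cox7a1 and 91.4% and then 85.3% for Cox8b, while in males the medians were 74.2% and 73.6% for Cox7a1 and 90.8% and 91.2% for Cox8b. Cox6a2, the muscle form with the highest level per coding length, had median shares of 95.04% and 95.24% in the 2 runs of females. These shares are descriptions and were not tested.

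Other small subunits fell in females as well. In complex IV these were Cox7c (-0.43 ± 0.08), Cox7b (-0.25 ± 0.07) and Cox6c (-0.20 ± 0.07). In complex V they were Atp5mj (-0.47 ± 0.08), Atp5mf (-0.40 ± 0.08), Atp5mc2 (-0.24 ± 0.05) and the stalk subunit Atp5pd (-0.21 ± 0.07). In complex III they were Uqcr10 (-0.28 ± 0.07), Uqcrb (-0.23 ± 0.08) and the hinge protein Uqcrh (-0.20 ± 0.07). Atp5mj was below the first-run median in 20 of 20 second-run females, Cox7c in 19 and Atp5mf in 18.

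The genes that rose in females from the first to the second run included cores that fell in males. Cyc1 (ENSMUSG00000022551, chromosome 15, 76227204 to 76230462) had a median of 772 CPM in the first run (676 to 915) and 870 CPM in the second (727 to 1045), with 18 of 20 libraries above the first-run median (0.15 ± 0.05, edgeR adjusted p = 0.0106). In males its median went the other way, from 877 CPM (750 to 1170) to 770 CPM (575 to 961). Sdhc (ENSMUSG00000058076, chromosome 1, 170954732 to 170978223) went from a median of 430 to 478 CPM in females, with 17 of 20 above, and from 500 to 445 CPM in males, with 18 of 20 below. Uqcrc1 (0.16 ± 0.05), the c ring genes Atp5mc3 (0.23 ± 0.07) and Atp5mc1 (0.18 ± 0.06), Atp5mg (0.22 ± 0.07) and Cox5b-ps (0.33 ± 0.11) also rose. Leaving out female mix replicate 10 ended the calls of Sdhc (edgeR adjusted p = 0.0561), Uqcrc1 (0.0600) and Atp5mc1 (0.0800). Leaving out female sham replicate 9 ended the last 2 as well, female western replicate 7 ended that of Atp5mc1, and female gamma replicate 3 ended that of Uqcrb. Of the 40 female libraries, 12 ended the call of Cox6c and 17 that of Uqcrh when left out singly, and the other 15 calls held each time.

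**Figure D3:**
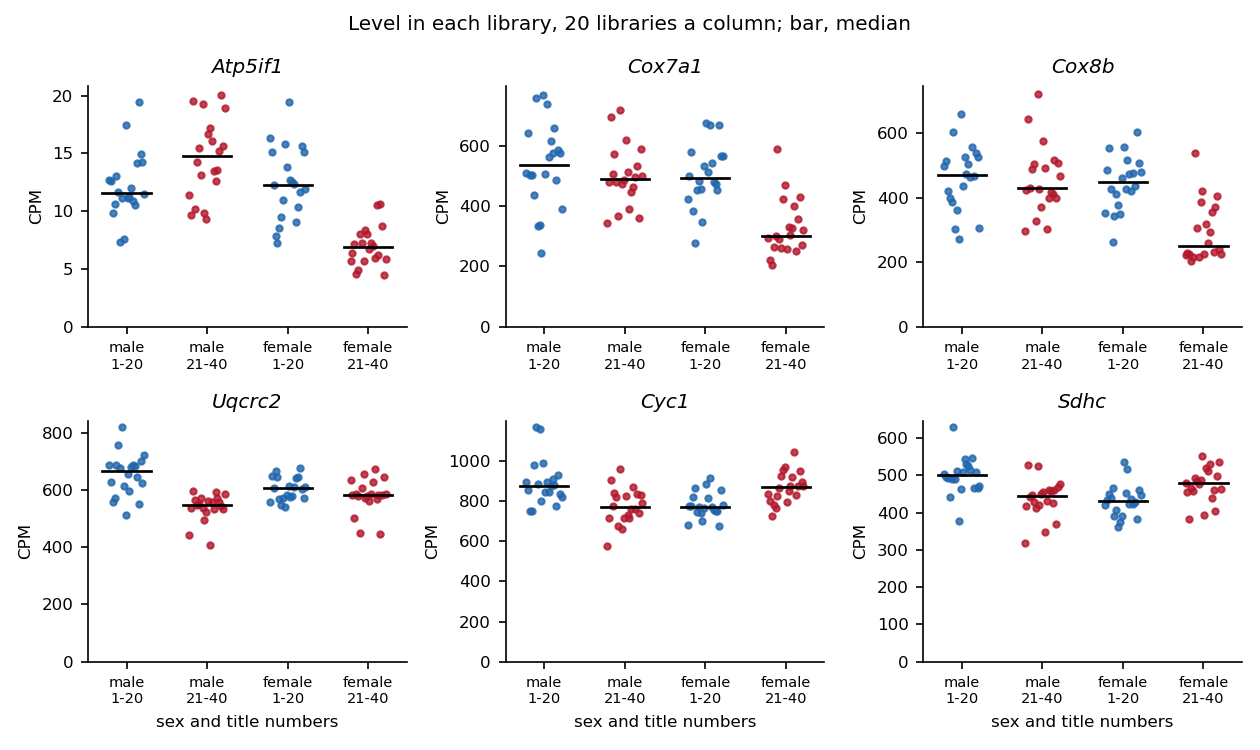
CPM in each library for 6 genes by sex and title numbers, 20 libraries a column (4 conditions of 5), with the median as a bar. Atp5if1, Cox7a1 and Cox8b are low in second-run females (medians 6.87, 302 and 250 CPM), Uqcrc2 is low in second-run males (549 CPM), and Cyc1 and Sdhc move in opposite directions in the sexes.

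The difference between the sexes in this change was tested directly. It was called for 16 genes, 6 with a higher value in males than in females (background, 14.6%) and 10 with a lower one (background, 12.3%). Atp5if1 differed most, by 1.096 ± 0.152 on the log2 scale (SE, edgeR adjusted p = 9.72e-08). Cox8b (0.60 ± 0.14), Cox7a1 (0.53 ± 0.15), Atp5mj (0.41 ± 0.11), Atp5mf (0.35 ± 0.11) and Cox7c (0.33 ± 0.11) were the others of that direction. On the opposite side were Atp5mc3 (-0.44 ± 0.09), Cyc1 (-0.35 ± 0.07), Sdhc (-0.33 ± 0.07), Atp5mc1 (-0.30 ± 0.09), the common forms Cox8a (-0.29 ± 0.09) and Cox6a1 (-0.26 ± 0.10), Uqcrc1 (-0.26 ± 0.08), Atp5f1d (-0.25 ± 0.08), Uqcrc2 (-0.22 ± 0.07) and Sdhb (-0.19 ± 0.07). Cox8b and Cox8a were thus called in opposite directions. Leaving out single libraries ended the call of Cox6a1 for 20 of 80 libraries, among them female gamma replicate 7 (adjusted p = 0.0528), and that of Sdhb for 25.

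**Figure D4:**
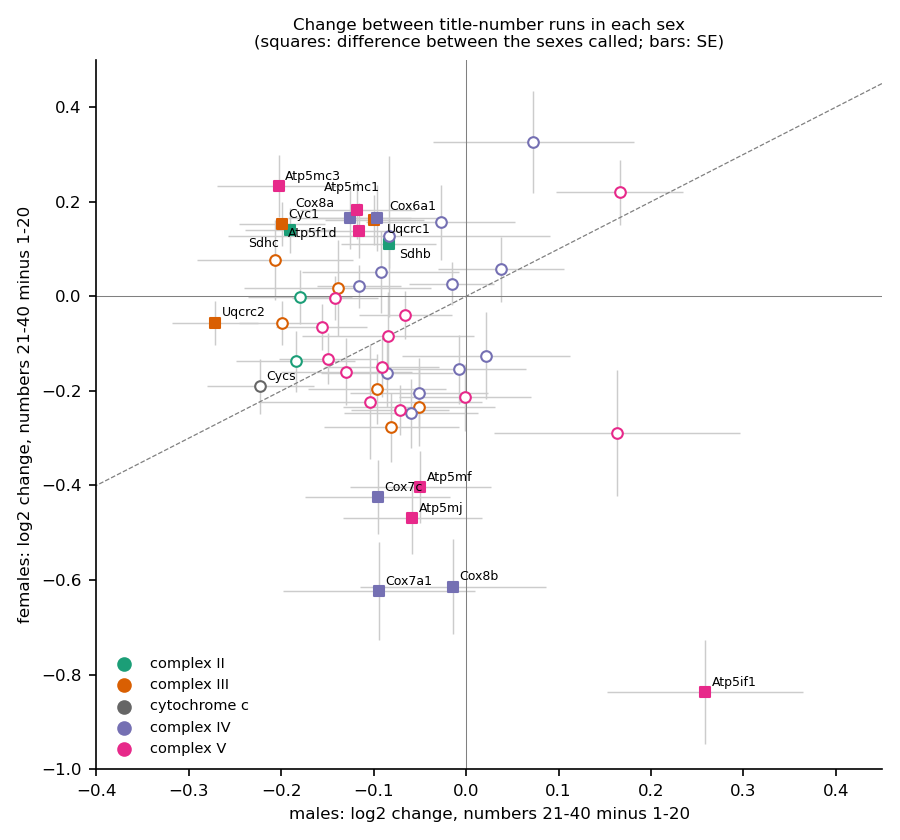
Log2 change from title numbers 1-20 to 21-40 in males (x) and females (y) for the 49 genes, with SE bars; filled squares mark the 16 genes whose change differed between the sexes, and the dashed line is equal change. Atp5if1, Cox7a1, Cox8b, Atp5mj, Atp5mf and Cox7c lie below the line, and Atp5mc3, Cyc1, Sdhc and others lie above it.

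The called genes differed in length. The 12 genes lower in males had a median coding length of 795 bases (315 to 1992), the 14 lower in females one of 254 bases (174 to 483), and the 7 higher in females one of 423 bases (354 to 1440). Of the 16 members with under 300 coding bases, 8 were lower in females and 0 in males. Of the 5 members with 1200 bases or more, 0 were lower in females and 3 in males. Among all protein-coding genes tested, 11.9% of the 226 under 300 bases and 14.1% of the 8024 with 1200 or more were lower in females. In males the shares of these length classes called lower were 14.2% and 12.1%, and the shares called higher were 6.64% and 19.2%. The split by length of the lower calls was not tested. The sequences before Cox7c and Uqcrc2, a short subunit lower in females and a long one lower in males, are shown as for the muscle forms above.
Cox7c: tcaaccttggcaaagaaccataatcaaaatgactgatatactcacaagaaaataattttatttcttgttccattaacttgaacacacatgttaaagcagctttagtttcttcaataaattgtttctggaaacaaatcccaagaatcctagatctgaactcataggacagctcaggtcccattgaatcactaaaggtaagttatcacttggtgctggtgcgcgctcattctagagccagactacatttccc
Uqcrc2: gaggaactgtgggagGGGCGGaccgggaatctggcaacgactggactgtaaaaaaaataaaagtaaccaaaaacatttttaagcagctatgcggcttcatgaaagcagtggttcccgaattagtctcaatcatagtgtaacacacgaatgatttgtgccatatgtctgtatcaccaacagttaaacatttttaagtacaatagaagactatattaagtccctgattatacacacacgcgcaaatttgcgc
The windows are chr13:86195024-86195273 (minus strand), with no annotated exon, and chr7:120233726-120233975 (plus strand), which an exon of the gene Gm45112 reaches. Cox7c held none of the 6 words, and Uqcrc2 held the Sp1 word 235 bases before the start. The Sp1 word was in 6 of the 12 promoters of genes lower in males, 1 of the 14 of genes lower in females and 2 of the 7 of genes higher in females, beside 48.1% of all promoters.

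**Figure D5:**
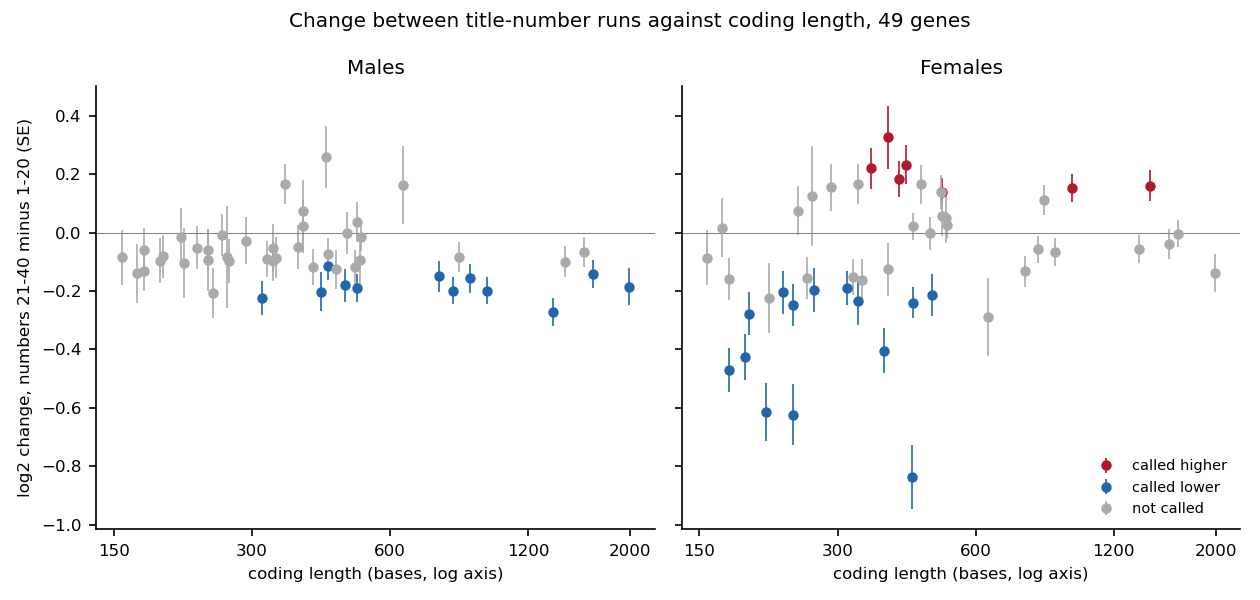
Log2 change between the runs (with SE) against coding length on a log axis for the 49 genes, in males (left) and females (right); colours mark called genes. Lower calls sit at 315 bases or more in males and at 483 bases or fewer in females.

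Several library measures moved with the runs. The ribosomal transcript Rn18s-rs5 took a median of 0.351% of counts in first-run males and 1.65% in second-run males, but 3.57% in first-run females and 0.484% in second-run females. Mitochondrial transcripts took 23.7% and 21.4% in males and 23.7% and 25.9% in females. Their part in the members' changes was not tested. With both left out of the library sizes the calls numbered 13 in males, 21 in females and 16 for the difference. That refit alters only the scaling, so it cannot test this part. In males 3 of 5 atrial markers were called lower and 1 higher. Their summed level was 10.1 to 1010 CPM in the first run (median 164) and 6.84 to 2057 CPM in the second (median 10.03). Also in males, 3 of 5 fibroblast, 3 of 4 fat and 2 of 3 smooth muscle markers were lower. In females 2 of 3 smooth muscle and 1 of 5 fibroblast markers were higher, and 0 of 5 atrial and 0 of 4 fat markers were called. In males 1 of 5 erythroid markers was higher (Hbb-bs, 1.20 ± 0.30), against 0 in females, and the sex difference was called for 3. These markers summed to 72.3 to 1165 and then 70.9 to 1545 CPM in males, and to 194 to 3903 and then 77.3 to 1195 CPM in females. Of 5 macrophage markers 0 were called in males, and Mrc1 was lower in females. Of 5 endothelial markers 2 were higher in each sex. Of 8 ventricular markers, 1 was higher and 1 lower in each sex. Over all genes, the shares called lower and higher were 12.8% and 17% in males and 12.1% and 11.9% in females. The part of these cell types in the results was not tested.

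The rest of the respiratory chain and its helpers were called in the run comparison in both directions. Over all genes tested, 12.8% were called lower and 17% higher in males, and 12.1% lower and 11.9% higher in females. These shares are the background for the lists here and below. Of 38 nuclear complex I subunits, 5 were lower and 1 higher in males, and 7 were lower and 6 higher in females, led by Ndufb9 (-0.82 ± 0.11) and Ndufb1 (-0.75 ± 0.10). Of 13 mitochondrially encoded subunits, 6 were lower in males, led by mt-Nd6 (-0.38 ± 0.08). In females 9 were higher, led by mt-Co2 (0.73 ± 0.09) and mt-Atp6 (0.74 ± 0.10). Both leaders in females had low mean levels, at 160 and 84.7 CPM, beside 98420 CPM for mt-Co1. The median change over the 13 in females was 0.38, and mitochondrial transcripts went from 23.7% to 25.9% of counts. The sex difference was called for 9 of the 13 subunits, all lower in males (background, 12.3%), while that of the nuclear members went both ways.

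Assembly factors were lower in males in 4 of 9 genes for complex III, 7 of 24 for complex IV and 4 of 5 for complex V, with 0 of 4 for complex II. In females 5 assembly factors were higher and 3 lower over these lists. Among 16 regulators of mitochondrial gene expression, 2 were higher and 1 lower in males, where the nuclear receptor Esrra was lower (-0.19 ± 0.04), and 1 was higher and 5 lower in females, where the coactivator Ppargc1b was lower (-0.58 ± 0.15). Of 10 carriers and cristae proteins, 5 were lower in males, led by the mitochondrial creatine kinase Ckmt2 (-0.23 ± 0.05), and 4 in females. In the treatment comparisons and between the sham sexes 0 genes of these lists were called by edgeR.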

How the data were processed

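RNA was extracted from left ventricular tissue with the RNeasy Mini kit, poly-A selected and made into libraries with NEBNext Ultra II reagents, per the labels' protocols. The authors deposited raw read counts per Ensembl gene for 80 libraries. The submitters' processing notes name FastQC 0.11.9, STAR 2.7.8a and the build GRCm39 (mm39), but the tool that counted reads, its strand setting and its annotation were not given in the sources used here.

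Symbols, coordinates and lengths came from GENCODE on GRCm39, which matched 56323 of 56941 rows. Counts were fitted with edgeR 4.0.16 (R 4.3.3), using TMM scaling, filterByExpr (15879 genes kept) and the quasi-likelihood test over all 8 groups, with Benjamini-Hochberg adjustment over all genes and a threshold of 0.05. Sex differences are the effect in males minus that in females. Run comparisons used 16 cells of 5 libraries (group by run). SE is the log2 change divided by the root of F. CPM of members are scaled by TMM, and those of the member limit, pseudogenes and marker sums by library totals. The scripts were tested on simulated data. DESeq2 1.42.0, limma-voom 3.58.1, other scalings and filters, run terms and left-out libraries were the alternatives. Tables and figures were made with Python 3.11.15.

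The members and lists were chosen with earlier results of these data known. Named genes were all called members up to the 20 of smallest p, or the 5 of smallest p where fewer than 5 were called, plus isoform pairs, extremes of level, Cycs and Atp5if1. Uqcrh, the called gene after the 20, and the full sets at an unadjusted p under 0.05 were named after their values were seen. Same-numbered replicates of the sexes did not pair.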

Additional observations from a re-analysis of the deposited data

Results flagged for a closer look

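Within groups of 10, a library stood far from the nearest other by Dixon's test in 23 of 320 levels (40 genes in 8 groups), and chance gives about 1 in 20. Male gamma replicate 7 was highest of its group for Atp5if1 (19.5 CPM), Atp5mc1 (1256 CPM), Cox4i1 (1559 CPM), Cox6a2 (1938 CPM) and Cox6b1 (675 CPM). Male gamma replicate 10 was lowest for Atp5f1a (3167 CPM), Sdha (894 CPM) and Sdhc (317 CPM). Female mix replicate 10 was lowest for Atp5f1a (2635 CPM), Sdha (602 CPM) and Atp5pb (575 CPM). Female gamma replicate 7, which lacks Xist, was lowest for Sdha (1038 CPM).

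Female sham replicate 10 was lowest for Atp5f1c (747 CPM) and Cox7a2 (177 CPM). Among high values were Atp5if1 in female sham replicate 1 (19.4 CPM), Atp5mc1 in female sham replicate 9 (1256 CPM) and in female gamma replicate 4 (1263 CPM), Cox8a in the same gamma library (121 CPM), and Cox4i2 in male sham replicate 5 (16.8 CPM) and male gamma replicate 1 (18.7 CPM). Among low values were Cox6b1 in male western replicate 5 (368 CPM), Sdha in male western replicate 7 (945 CPM) and Uqcrc2 in female western replicate 6 (446 CPM).

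The change between the runs differed between males and females for 16 genes by the contrast itself in edgeR, given as log2 change in males minus that in females. It was 1.096 for Atp5if1, 0.60 for Cox8b, 0.53 for Cox7a1, 0.41 for Atp5mj, 0.35 for Atp5mf and 0.33 for Cox7c. It was -0.44 for Atp5mc3, -0.35 for Cyc1, -0.33 for Sdhc, -0.30 for Atp5mc1, -0.29 for Cox8a, -0.26 for Cox6a1, -0.26 for Uqcrc1, -0.25 for Atp5f1d, -0.22 for Uqcrc2 and -0.19 for Sdhb.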

How the results depend on the processing

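The treatment comparisons had 0 called members under every alternative run, and with the replicate block the 3 sex differences had 0 each; same-numbered libraries of the sexes were not paired, since 8 of 40 pairs had a correlation of deviations over 0.1 and 0 of 40 correlated best with their own number. Between the sham sexes the count was 3 within title numbers 21-40, 1 with Rn18s-rs5 and run terms, and 0 to 1 with 1 library left out. The run calls numbered 8 to 17 in males, 18 to 24 in females and 14 to 20 for the difference over all alternatives. Without the 20 libraries over 10 CPM of Myl7, all of males, the count in females was 23, and the comparison in males and the sex difference could not be fitted, since no first-run library of sham, Western or gamma males was left. Of single genes, 10 values changed sign, none of them called, and the cause was not tested. Without the libraries over 10 CPM of Myl7 these were Atp5f1b for the Western diet in males (0.0088), Cox4i2 for the mix field in males (0.0906), Cox5a for gamma radiation in males (0.0709) and Cox5a for the mix field over both sexes (0.0019). Within title numbers 21-40 they were Atp5f1b for the Western diet in males (0.0582), Atp5mg for the mix field in males (-0.14), Sdhc for the Western diet over both sexes (0.0052) and the sex difference of Cox5b-ps in the Western effect (-0.15). Within title numbers 1-20 they were the sex differences of Cox5a (-0.0105) and Sdhd (-0.0818) in the Western effect. Among named members 1292 other values kept their direction and side of the threshold, 24 lost it and 3 gained it. The precision of a treatment effect in 1 sex is limited by a median SE of about 0.11 on the log2 scale.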
